A study of Mus musculus with 2 samples.

Results

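The nuclear genes of respiratory complexes II to V and of cytochrome c were examined in long reads of adrenal gland, the paired gland above the kidney that holds a steroid-making cortex and a catecholamine-making medulla. Members were taken by gene symbol: the succinate dehydrogenase genes (Sdh) with their assembly factors, the ubiquinol-cytochrome c reductase genes (Uqcr, Uqcc, Cyc1), Cycs, the numbered Cox genes and the genes whose symbols start with Atp5. The rule found 64 gene records with 63 symbols among the 18177 annotated genes with reads, because Atp5o has 2 gene identifiers. It took all 1492 transcript models of these genes, counted separately in each library, and used no measured value. The 1 group of samples came from male B6CASTF1/J mice, the F1 hybrid strain as labelled, at 14 days. The labels name no treatment, no engineered allele and no second condition. It was sequenced as 2 libraries, biological replicates 1 and 2. Both carry 1 donor identifier and their biosample labels read "3x Males", so the labels do not show whether separate animals or pools of animals were used, and every test here compares the 2 libraries only.

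Complex II oxidises succinate and passes electrons to ubiquinone. Complex III hands them on to cytochrome c, complex IV uses them to reduce oxygen, and complex V makes ATP from the proton gradient that complexes III and IV help to build. Complex II is encoded wholly in the nucleus, whereas the other complexes combine nuclear subunits with a few made in mitochondria. In the adrenal cortex mitochondria also hold the first and the last steps of corticoid synthesis, and several complex IV subunits exist as gene pairs whose second copy is best known from heart, skeletal muscle, lung or testis.

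The libraries held 964679 and 984958 reads without ERCC spike-ins, of which 51424 (5.33%, 95% Wilson interval 5.29 to 5.38) and 54483 (5.53%, 5.49 to 5.58) fell on the 64 genes. Levels are given as CPM, the number of reads scaled to a total of 1e+06. One read stands for 1 sequenced cDNA molecule, so CPM was not divided by length. CPM per kilobase of the reads' mean model length is added where genes are ranked. The labelled tissue matched its markers: all 6 cortex genes had reads (39418 and 39266 CPM summed) and so had all 5 chromaffin genes (8172 and 7942 CPM). Single genes of these lists still passed the test used here between the libraries. In the cortex list Cyp11a1 was higher in replicate 2 (15608 and 18160 CPM), and Cyp21a1, Cyp11b1 and Star were higher in replicate 1. Of the chromaffin genes, Th and Dbh were higher in replicate 1. Under the TMM scaling used below, 2 cortex and 2 chromaffin genes were higher in replicate 2 and 1 cortex gene in replicate 1. The libraries also differed in other cells' genes. The 8 hepatocyte genes summed to 754 CPM in replicate 1 and 15658 CPM in replicate 2, each of them passing the test used here. The 4 neuron genes were all lower in replicate 2 (38.6 against 155 CPM summed). The 7 brown adipocyte genes all had reads and summed to 10382 and 10184 CPM, nearly all of it from 3 of them. In whole-tissue RNA, fewer cells of a type and less RNA per cell cannot be told apart.

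All 64 gene records had reads in both libraries. The annotation holds 68 genes that fit the rule, and the 4 without a read were Cox6a2, Cox7b2, Cox8c and the processed pseudogene Cox20b. A count of 0 allows 3.11 CPM in replicate 1 and 3.05 CPM in replicate 2. Intervals and these limits cover counting error only. Since reads carry no molecular identifiers, copies of 1 molecule cannot be told apart.

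Among the 4 complex II subunits, Sdhb, which carries the iron-sulfur clusters, was highest in the mean, at 1218 and 1146 CPM. Sdha, the flavoprotein that oxidises succinate, had 1256 and 884 CPM and was ahead of Sdhb in replicate 1. The membrane anchors differed from each other: Sdhd had 747 and 647 CPM and Sdhc had 133 and 114 CPM in the 2 libraries. The assembly factors were lower, the highest being Sdhaf4 (116 and 136 CPM), which was level with Sdhc, and the lowest Sdhaf3, with 18 and 8 reads.

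Complex III subunits ranged in the mean from Uqcrc1, a core protein, at 2634 and 2079 CPM down to Uqcrh, the hinge protein, at 391 and 466 CPM. In replicate 2 Uqcrq, a small subunit, was above Uqcrc1 at 2546 CPM. The second core protein, Uqcrc2, was lower than the first at 624 and 502 CPM. Cyc1, which carries the haem that faces cytochrome c, had 1528 and 1344 CPM, and the Rieske protein Uqcrfs1 had 1051 and 1022 CPM. The complex III assembly factors Uqcc1 (185 and 135 CPM), Uqcc3 (136 and 138 CPM) and Uqcc2 (97.4 and 149 CPM) were all lower than every subunit in both libraries. Cytochrome c itself, Cycs, had 1068 and 1094 CPM.

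Complex IV took the largest share, with 15 subunit genes that summed to 19662 and 21859 CPM. Cox4i1, the subunit 4 form of most tissues, led it with 5179 and 5255 CPM, followed by Cox8b with 2291 and 3012 CPM. The 2 lowest were Cox4i2 and Cox6b2. The 9 assembly factors together gave 1283 and 1484 CPM. Cox17, the copper chaperone, was their highest member (446 and 543 CPM) and Cox11, which inserts copper into subunit 1, their lowest (22.8 and 26.4 CPM).

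Complex V was uneven within its catalytic head. Atp5b, the catalytic beta subunit, was the highest member of all in CPM, at 5797 and 5383 (mean 5590 ± 293, SD, n = 2), whereas its partner Atp5a1, the alpha subunit, had 2526 and 1993 CPM. The central-shaft subunits Atp5c1, Atp5d and Atp5e lay between 535 and 903 CPM, with Atp5e lowest at 535 and 602 CPM. In the stalk and membrane part, Atp5j2 was highest (930 and 1192 CPM) and the second Atp5o record lowest, with 1 and 5 reads. That record (chr16:91684398-91926982, mm10, minus strand) overlaps the main Atp5o gene (chr16:91925214-91931687), which had 714 and 834 reads, so reads of the pair cannot be divided with confidence. Atp5s, named for ATP synthase but not a subunit of the enzyme, had 21 and 19 reads.

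Dividing by length changed the order at the top. Per kilobase of mean model length, Cox4i1 came first (7995), then Cox8b (7325) and Atp5b (4474), whereas in CPM Atp5b came before Cox4i1 and Cox8b. The processed pseudogene Cox6c2 had 4 reads in each library, and its reads could belong to the near-identical Cox6c, which had 1495 and 1617.

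**Figure D1:**
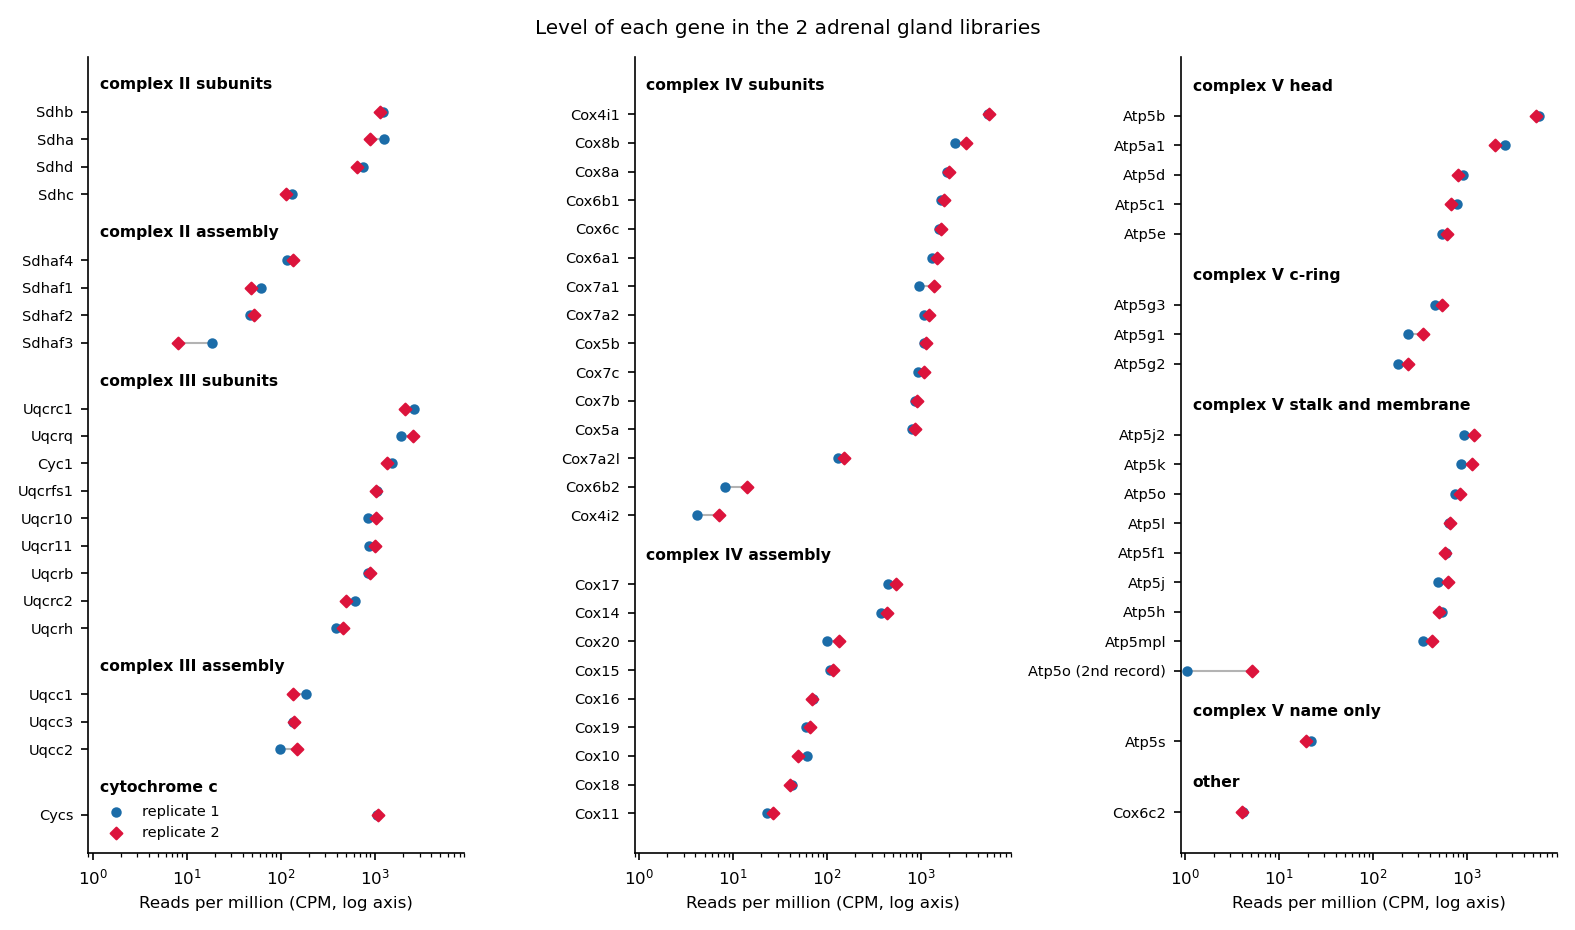
CPM of every member on a log axis, by complex and role; circles are replicate 1, diamonds replicate 2, and a grey line joins them. Atp5b (5797 and 5383 CPM) and Cox4i1 (5179 and 5255 CPM) stand highest, and of the 15 complex IV subunits Cox4i2 and Cox6b2 stand apart at the bottom.

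Of the complex IV genes, 2 that are best known from heart and skeletal muscle were read at high level in this whole-tissue RNA. For subunit 8, Cox8b had 2210 and 2967 reads and Cox8a, the form of most tissues, had 1811 and 1968. Cox8b therefore held 55.0% of the family's reads in replicate 1 (Wilson interval 53.4 to 56.5) and 60.1% in replicate 2 (58.7 to 61.5). It was the larger part in both libraries, in known models alone (57.3% over both) and per kilobase (7325 against 3456 CPM per kilobase). Cox8c, known from testis, had no read, which allows a share of up to 0.0746% and 0.0608%.

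For subunit 7a, Cox7a1, best known from heart and skeletal muscle, had 915 and 1346 reads beside 1038 and 1199 of Cox7a2. Its share was 46.9% (44.6 to 49.1) in replicate 1 and 52.9% (50.9 to 54.8) in replicate 2. The pair thus stood near equality, and which gene was ahead depended on the library and on the models counted: in known models alone Cox7a1 held 48.0% and 49.6%. Some reads of this locus were filed elsewhere in replicate 1. There, a single-exon model with 190 reads (chr7:30185359-30186030, plus strand) and a 2-exon model with 3 reads formed an unannotated gene record. That record overlaps the last exon of Cox7a1 (chr7:30184144-30186078). Its 2-exon model is labelled antisense and runs on the plus strand to position 30190052, past the end of Cox7a1. Replicate 2 had no such record, and 261 of its reads lay in a single-exon model of Cox7a1 at chr7:30185912-30186030, its last exon. The 190-read model also covers the intron before that exon, and the 261-read model does not. Whether the 2 models hold the same kind of read is not known. If the 193 reads are counted as Cox7a1, it had 1108 and 1346 reads and held 51.6% (49.5 to 53.7) and 52.9% of the pair. Cox7a1 was the only member with such reads when at least 50 exon bases had to be shared.

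The other pairs gave almost all reads to the form of most tissues. Cox4i2, a form known from lung, had 4 and 7 reads beside 4996 and 5176 of Cox4i1, or 0.0800% and 0.135%. Cox6b2, known from testis, had 8 and 14 reads beside 1573 and 1729 of Cox6b1, or 0.506% and 0.803%. Cox6a2, the heart and muscle form of subunit 6a, had no read beside 1267 and 1454 of Cox6a1, which allows up to 0.237% and 0.206% of the pair. Cox7b2 had no read beside 824 and 897 of Cox7b, which allows up to 0.364% and 0.334%. The muscle-type genes were therefore not high as a set: Cox7a1 and Cox8b were high while Cox6a2 was at 0.

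Brown fat expresses Cox7a1 and Cox8b too, and all 7 of its markers had reads. The 3 highest were Fabp4 (4371 and 4263 CPM), Cidea (3130 and 3045 CPM) and Ucp1 (1949 and 2065 CPM). Plin1 (332 and 305 CPM), Adipoq (227 and 264 CPM) and Cpt1b (352 and 226 CPM) were lower, and Elovl3 had 20 and 16 reads. Cpt1b was the 1 of the 7 that passed between the libraries, and it was lower in replicate 2. Under TMM scaling Cpt1b passed in the same direction, Ucp1, Cidea and Fabp4 passed as higher in replicate 2, and 3 did not pass. Of the 8 striated muscle markers, 6 were at 0 in both libraries, among them Ckm, Myh4, Myh1, Tnnt3, Actc1 and Myh6, Acta1 had 1 read in all and Myl1 had 19 and 20. The part of brown adipocytes in the levels of Cox7a1 and Cox8b was not tested.

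The c-ring subunit of ATP synthase is made from 3 genes whose mature proteins are identical and whose import sequences differ. Atp5g3 had 441 and 532 reads, Atp5g1 had 227 and 336, and Atp5g2 had 176 and 229. Their shares were 52.3%, 26.9% and 20.9% in replicate 1 and 48.5%, 30.6% and 20.9% in replicate 2. Counting known models only lowered the share of Atp5g2 over both libraries from 20.9% to 10.7%, since 98 and 142 of its reads were single-exon reads outside the known models.

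**Figure D2:**
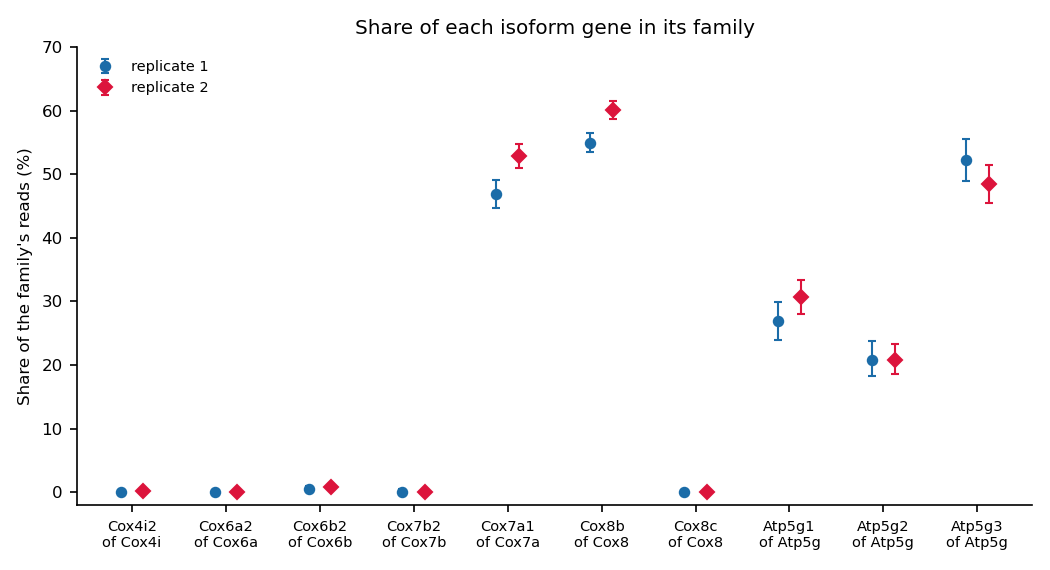
Share of each isoform gene in the reads of its family (%), per library, with 95% Wilson intervals as bars. Cox7a1 and Cox8b stand between 46.9% and 60.1%, whereas Cox4i2, Cox6a2, Cox6b2, Cox7b2 and Cox8c stay under 1%.

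Long reads separate these pairs because the coding sequences differ along their whole length. The coding sequences of the 2 expressed pairs and the shared end of the c-ring genes are printed from the reference transcripts of GENCODE M21 (mm10), 5′ to 3′, to show how far reads of one gene could pass for the other. Capitals in the Cox8 and Cox7a sequences mark bases that differ from the pair's other gene or have no partner in the alignment. Cox8a (chr19:7215389-7217512, minus strand) and Cox8b (chr7:140898988-140900342, minus strand) are alike at 115 of 204 aligned bases, or 56.4%. Cox7a1 (chr7:30184231-30185967, plus strand) and Cox7a2 (chr9:79755547-79759657, minus strand) are alike at 152 of 243, or 62.6%.
Cox8a: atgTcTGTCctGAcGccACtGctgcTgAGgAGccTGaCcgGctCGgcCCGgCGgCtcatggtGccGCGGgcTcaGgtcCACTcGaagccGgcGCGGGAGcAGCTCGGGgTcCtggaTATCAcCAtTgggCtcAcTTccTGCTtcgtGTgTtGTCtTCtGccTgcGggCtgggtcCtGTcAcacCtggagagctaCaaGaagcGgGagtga
Cox8b: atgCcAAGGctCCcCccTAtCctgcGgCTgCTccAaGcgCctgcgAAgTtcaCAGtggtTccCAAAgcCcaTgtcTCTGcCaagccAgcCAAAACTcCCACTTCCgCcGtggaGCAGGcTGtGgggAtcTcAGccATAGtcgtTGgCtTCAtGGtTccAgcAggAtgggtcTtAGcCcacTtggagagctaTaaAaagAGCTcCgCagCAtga
Cox7a1: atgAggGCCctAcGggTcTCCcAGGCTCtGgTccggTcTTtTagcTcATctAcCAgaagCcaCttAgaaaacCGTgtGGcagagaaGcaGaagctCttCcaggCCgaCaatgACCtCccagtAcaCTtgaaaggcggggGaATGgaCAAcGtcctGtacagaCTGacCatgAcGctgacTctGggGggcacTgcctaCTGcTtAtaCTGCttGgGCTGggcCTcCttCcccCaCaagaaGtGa
Cox7a2: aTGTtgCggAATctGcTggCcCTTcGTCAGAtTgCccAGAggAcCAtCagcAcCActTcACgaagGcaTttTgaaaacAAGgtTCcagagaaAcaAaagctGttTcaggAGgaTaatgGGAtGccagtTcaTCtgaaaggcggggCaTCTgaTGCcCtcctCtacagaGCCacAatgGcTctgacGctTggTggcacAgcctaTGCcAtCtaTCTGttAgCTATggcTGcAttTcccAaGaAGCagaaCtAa

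The last 120 coding bases of the c-ring genes lie within the mature protein, and capitals mark the 31 positions at which the 3 genes are not all alike. They come from chr11:96073104-96073527 (Atp5g1), chr15:102663014-102665058 (Atp5g2) and chr2:73908593-73909188 (Atp5g3), all on the minus strand.
Atp5g1: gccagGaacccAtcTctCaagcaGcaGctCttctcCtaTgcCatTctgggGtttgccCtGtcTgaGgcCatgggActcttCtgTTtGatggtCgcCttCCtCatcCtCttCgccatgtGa
Atp5g2: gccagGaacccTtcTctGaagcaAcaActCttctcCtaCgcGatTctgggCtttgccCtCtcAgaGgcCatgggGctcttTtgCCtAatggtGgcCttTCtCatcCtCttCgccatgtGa
Atp5g3: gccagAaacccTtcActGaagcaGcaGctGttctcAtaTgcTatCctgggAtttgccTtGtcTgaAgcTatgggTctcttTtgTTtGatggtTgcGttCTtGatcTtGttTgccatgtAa

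The 2 libraries were then set against each other gene by gene. Of the 62 members with at least 10 reads over both, 15 passed an adjusted p of 0.05 with the higher level in replicate 2, 6 with the higher level in replicate 1, and 41 did not pass (two-sided exact binomial test, Benjamini-Hochberg over all 11094 genes tested). Over all genes tested 9.17% passed in either direction, 4.35% as higher in replicate 2 and 4.81% as higher in replicate 1, against 33.9%, 24.2% and 9.68% of the members. On the log2 scale the ratio of CPM, replicate 2 divided by replicate 1, had a median of 0.10 in the members and -0.15 in all genes. TMM scaling moved the median of all genes from -0.15 to 0.01. It gave 31 members higher in replicate 2 and 3 higher in replicate 1, with 6.07% and 1.85% of all genes as background. Counts as abundant as these pass the test at small ratios: for the 51 members with 200 reads or more the median absolute log2 ratio was 0.21, and for the 1894 genes of that depth 0.22.

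In complex IV, 5 of 15 subunits passed, all in that direction. Cox8b had 2291 and 3012 CPM, a ratio of 1.31 (exact interval 1.24 to 1.39). Cox7a1 went from 949 to 1367 CPM, a ratio of 1.44, or 1.19 (1.10 to 1.29) with the reads filed elsewhere added, and it passed both ways. Smaller ratios that passed were those of Cox6a1 (1313 and 1476 CPM, 1.12), Cox7a2 (1076 and 1217 CPM, 1.13) and Cox7c (927 and 1066 CPM, 1.15). Cox4i1 did not pass (5179 and 5255 CPM, ratio 1.01, 0.976 to 1.06) but did so under TMM scaling, which gave 12 of 15. Cox17 was the 1 assembly factor of 9 that passed, at 446 and 543 CPM, and under TMM scaling 3 of 9 did, all higher in replicate 2.

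Complex III had 3 calls in each direction among its 9 subunits. The small subunits Uqcrq (1924 and 2546 CPM, ratio 1.32), Uqcr10 (847 and 1043 CPM, ratio 1.23) and Uqcr11 (864 and 1005 CPM, ratio 1.16) were higher in replicate 2. The large core proteins Uqcrc1 (2634 and 2079 CPM, ratio 0.789) and Uqcrc2 (624 and 502 CPM, ratio 0.804) and Cyc1 (1528 and 1344 CPM, ratio 0.880) were higher in replicate 1. The other 3 did not pass, the small Uqcrh (391 and 466 CPM, ratio 1.19) and Uqcrb (842 and 888 CPM, ratio 1.06) and the larger Uqcrfs1 (1051 and 1022 CPM, ratio 0.973), and under TMM scaling Uqcrh and Uqcrb passed as higher in replicate 2. Of the 3 called for replicate 1, Uqcrc1 alone passed under TMM scaling, with adjusted p = 5.02e-04 (exact binomial test). The assembly factor Uqcc2 showed the largest called ratio of any member, 94 against 147 reads, 1.53 (1.17 to 2.01).

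In complex V the 2 calls in the head were for replicate 1 and the 5 calls in the c-ring, stalk and membrane part for replicate 2, while under TMM scaling the head had 1 call each way. Atp5a1 had 2437 and 1963 reads, a ratio of 0.789 (0.743 to 0.838), and was higher in replicate 1. Atp5b had 5592 and 5302 reads, a ratio of 0.929, and passed as higher in replicate 1, but its log2 ratio of -0.11 changed sign under TMM scaling (0.05) and DESeq2 size factors (0.01). The membrane and stalk subunits Atp5j2 (930 and 1192 CPM, ratio 1.28), Atp5k (854 and 1122 CPM, 1.31), Atp5j (487 and 619 CPM, 1.27) and Atp5mpl (340 and 424 CPM, 1.25) were higher in replicate 2. So was Atp5g1 of the c-ring (235 and 341 CPM, 1.45, interval 1.22 to 1.72). Known models alone no longer called Atp5j, whose log2 ratio went from 0.35 to 0.16.

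Complex II had 1 call among its 8 genes. Sdha had 1212 and 871 reads, a ratio of 0.704 (0.644 to 0.769), with adjusted p = 1.68e-13 (exact binomial test), and it was higher in replicate 1 under every alternative run. Its partners Sdhb (ratio 0.941), Sdhc (0.857) and Sdhd (0.865) did not pass. Their log2 ratios of -0.09, -0.22 and -0.21 lay near the median of all genes, and under TMM scaling they were 0.070, -0.064 and -0.051.

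Called members differed in coding length. Of the 21 members whose most-read coding transcript has at most 300 coding bases, 11 were higher in replicate 2 and none in replicate 1, with a median log2 ratio of 0.24. Of the 25 with more than 300 and up to 600 bases, 4 were higher in replicate 2 (median 0.09). Of the 9 with up to 1200 bases, 1 was higher in replicate 1 (median -0.07), and of the 7 longer ones 5 were higher in replicate 1 (median -0.32). Over all genes, 14.5% of those with at most 300 coding bases were higher in replicate 2 and 3.15% in replicate 1. For more than 300 and up to 600 bases these shares were 6.33% and 2.56%, and for those up to 1200 bases 4.70% and 4.24%. Above 1200 bases these shares were 3.04% and 5.92%. The medians of all genes in the 4 classes were 0.17, 0.01, -0.11 and -0.26. Under TMM scaling the members' medians were 0.39, 0.24, 0.09 and -0.16, so that of the class up to 1200 bases changed sign, and 3 of the 6 calls for replicate 1 remained. Across the 62 members the log2 ratio and the log2 coding length had Pearson's r of -0.53 and Spearman's rho of -0.60, and r was -0.47 without the 2 members farthest from the median length. Across 10565 genes r was -0.09 and rho -0.19. The 2 lists differ in depth, with a median of 580 CPM for members and 28.2 CPM for all genes tested. Their coefficients are therefore not directly comparable. These are descriptions over genes that share the same 2 libraries, not tests.

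**Figure D3:**
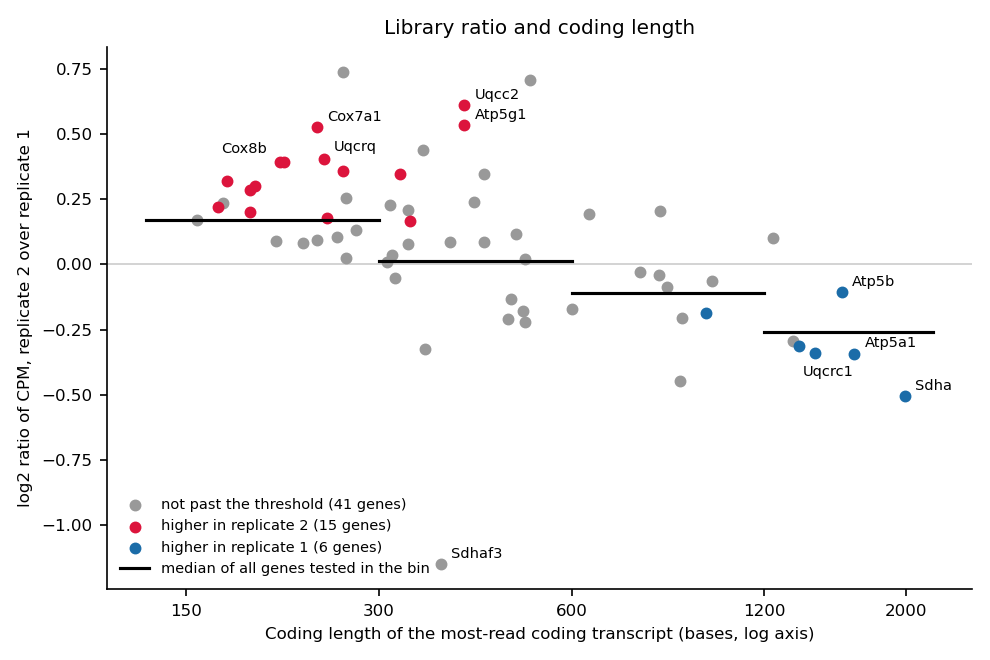
log2 ratio of CPM (replicate 2 over replicate 1) against coding length on a log axis; 1 point is 1 member, coloured by its call, and black lines are the medians of all genes tested in 4 length classes. The calls for replicate 2 lie on the left and those for replicate 1 on the right.

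Several measures moved with this pattern. The hepatocyte sum was higher and the neuron sum lower in replicate 2, as given above, and incomplete member reads were more frequent there, single-exon ones at 1.98% and 3.04% and multi-exon ones that end in the last exon at 7.73% and 8.37%. Without Cox7a1, at whose locus single-exon reads lay in different gene records in the 2 libraries, the single-exon share was 2.01% and 2.62%. Over all annotated genes it was 2.13% and 4.09%. These shares leave out models of the genomic class, which held 0.867% and 1.23% of member reads. Reads of other members also changed class between the libraries. Those of Cycs were genomic in replicate 1 (29 reads) and incomplete in replicate 2 (27), and those of Uqcrfs1 incomplete in replicate 1 (28) and genomic in replicate 2 (43). The part of each measure in the member ratios was not tested. When multi-exon models alone were counted, 20 members were higher in replicate 2 and 4 in replicate 1, and 19 of the 21 calls stayed the same, the exceptions being Atp5b and Cyc1.

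Other nuclear genes of assembly and control were taken as a list of 32, of which 31 were tested. Calls numbered 5, beside the 9.17% of all genes that passed, and many of the list have few reads. Ndufa4, a small protein bound to complex IV (2985 and 3440 CPM), Slirp, which stabilises mitochondrial messenger RNA (169 and 249 CPM), Atpif1, the inhibitor of complex V (272 and 351 CPM), and the nuclear receptor Esrra (151 and 208 CPM) were higher in replicate 2. Coa5, a complex IV assembly factor, was higher in replicate 1 (104 and 60.9 CPM) but not under TMM scaling, and 26 did not pass. The coactivator Ppargc1a was near the floor with 9 and 1 reads. The partners made in mitochondria summed to 1370 and 2187 CPM, and the 5 tested (mt-Cytb, mt-Co1, mt-Co2, mt-Co3, mt-Atp6) were all higher in replicate 2. The most abundant was mt-Co1, the catalytic subunit of complex IV, at 894 and 1138 CPM.

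Most reads of these genes had the intron chain of an annotated transcript. For some annotated transcripts a read cut short at the 5′ end has that chain too, as given below for Cox4i1. Known models, those whose introns match an annotated transcript, held 87.9% of the members' reads in replicate 1 and 85.9% in replicate 2, against 76.3% and 73.7% of reads over all annotated genes. The median known share per member was 94.7% and 93.2% (58 members with at least 20 reads in each library), and 80.9% and 78.1% over 6033 genes. Coding length differs between the members and all genes, and for genes of at most 300 coding bases the medians of all genes were 93.7% and 92.2%. Incomplete splice matches, which contain part of an annotated chain, made up 9.81% and 11.5% of member reads. New combinations of annotated splice sites made up 0.406% and 0.398%, and chains with an unannotated site 0.992% and 1.02%. Over all annotated genes incomplete matches made up 10.4% and 13.1%, new combinations 4.48% and 3.70%, and chains with an unannotated site 3.21% and 2.96%.

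The known share was lower in replicate 2 for 3 of the 58 members (Fisher's exact test, adjusted over all genes). As background, 0.812% of all genes passed, 0.779% with the higher share in replicate 1 and 0.0332% in replicate 2. Cox7a1 went from 98.5% to 79.7%, but with the 193 reads filed elsewhere added it went from 81.3% to 79.7% and did not pass (adjusted p = 0.982, Fisher's exact test). Atp5b went from 58.8% to 50.4%, and a 2-exon model with its last intron alone held 2046 and 2312 of its reads. Uqcrc1 went from 94.3% to 91.0% and did not pass among multi-exon models.

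In 3 of these 58 members, and in 829 of the 6033 genes tested, known models held under 50% of reads in both libraries. Atp5f1, the b subunit of the peripheral stalk, had no read in a known model, and 512 and 492 of its 576 and 576 reads lay in a 7-exon model that lacks the first intron of Atp5f1-201. Atp5j, coupling factor 6 of the same stalk, had 20.0% and 16.9% in known models, while 288 and 394 reads lay in a 4-exon model without the first intron of Atp5j-201. Atp5g2 had 43.8% and 33.6%, beside the single-exon reads given above. Single-exon reads were also common for Uqcrq, where 557 and 832 of 1856 and 2508 reads lay in 1 such model, for Sdhd (157 and 136 of 721 and 637) and for Sdhaf4 (42 and 54 of 112 and 134). Over all 64 gene records, the most-read model was a known one in 60.

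**Figure D4:**
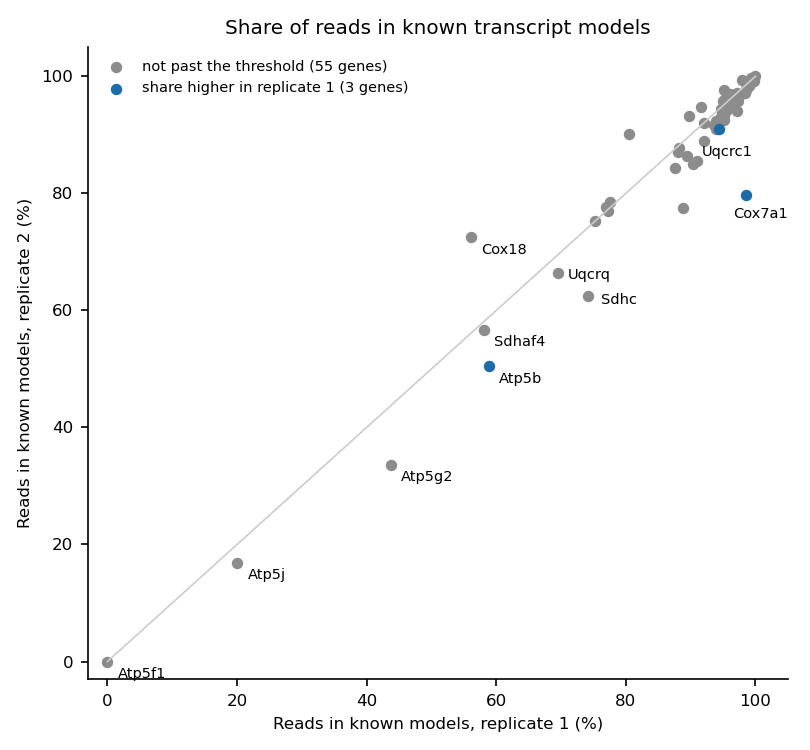
Share of each member's reads in known models (%), replicate 2 against replicate 1, for the 58 members with at least 20 reads in each library; the grey line marks equal shares. Cox7a1 and Atp5b lie below the line, and Atp5f1, Atp5j and Atp5g2 lie under 50% in both libraries.

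Cox4i1 shows a limit of these classes. Its most-read transcript was Cox4i1-204, annotated as a retained intron, with 2949 and 3085 reads (60.4% and 61.1% of full-splice reads), ahead of the coding Cox4i1-201 with 1817 and 1838. The 2 introns of Cox4i1-204 are the last 2 of Cox4i1-201, so reads of Cox4i1-201 cut short at the 5′ end have the same chain and cannot be told apart from it. Uqcrq-201, Atp5d-201, Cox6c-203 and Cox17-204, among others, share this nesting in longer annotated transcripts. Nested reads were counted as known in the shares above. They numbered 2976 and 3117 for Cox4i1, 1169 and 1532 for Uqcrq and 717 and 616 for Atp5d.

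The gamma subunit gene Atp5c1 used an alternative exon of 37 bases (chr2:10056770-10056806, minus strand). The gene is known for tissue-dependent splicing near its 3′ end, where heart and skeletal muscle skip an exon that other tissues include. Reads that spanned the site included it in 393 of 731 cases in replicate 1, or 53.8% (50.1 to 57.3), and in 414 of 653 in replicate 2, or 63.4% (59.6 to 67.0). Both forms were thus common in both libraries. The transcript with the exon, Atp5c1-203, held 361 and 363 full-splice reads, and Atp5c1-201, without it, held 306 and 207. The share of Atp5c1-203 was 52.5% and 61.9%, which did not pass (Fisher's exact test, p = 8.07e-04, adjusted p = 0.324). The ends of the 2 reading frames, chr2:10056800-10059025 for Atp5c1-203 and chr2:10056158-10059025 for Atp5c1-201, both on the minus strand, are printed with capitals for the bases after the last exon they share.
Atp5c1-203: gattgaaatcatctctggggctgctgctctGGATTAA
Atp5c1-201: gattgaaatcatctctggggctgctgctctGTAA
In Atp5c1-203 the alternative exon adds 1 codon, GAT, before its own stop codon TAA, whereas Atp5c1-201 reaches a stop codon at once.

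The most-read full-splice transcript was compared between libraries for 53 members. Atp5b alone passed (Atp5b-201, 99.0% and 97.7%, adjusted p = 0.0439, Fisher's exact test), against a background of 0.125% of 4817 genes, and 3 members had an unadjusted p under 0.05. With known models only, Atp5b did not pass and Sdha did, its transcript Sdha-201 going from 99.7% to 97.4% (adjusted p = 0.0104, Fisher's exact test). The other known reads of Sdha were those of Sdha-206 (3 and 19 reads), a retained-intron transcript nested in a longer one. Among the other reads of Atp5b was the nested Atp5b-205 (7 and 20 reads). Reads of the longer transcripts cut short at the 5′ end cannot be told apart from these, so a change of isoform is not shown.

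Among the 57 members for which both libraries held 20 or more full-splice reads, a second transcript held at least 10% of them in 10. Atp5c1 and Cox4i1 are described above. Atp5g1 used 2 first exons, with Atp5g1-202 at 132 and 193 reads and Atp5g1-201 at 79 and 106, and the coding part is the same in both. Atp5g3-201 had 241 and 304 reads and Atp5g3-202, which differs in its first exon, 96 and 108. Cox16 divided into Cox16-201 (36 and 38 reads), Cox16-202 (14 and 18) and Cox16-206 (13 and 6). Cox18, the insertase of the second complex IV subunit, divided into Cox18-202 (17 and 16) and Cox18-201 (6 and 12). Cox6c-203 had 183 and 171 reads beside 1299 and 1429 of Cox6c-201. Sdhaf2-203, annotated for nonsense-mediated decay, had 4 and 5 reads beside 31 and 39 of Sdhaf2-201. Cox11 had a second chain with 3 and 2 reads. Atp5j had its annotated transcript Atp5j-201 at 70 and 70 reads, and 2 unannotated chains over 10%.

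**Figure D5:**
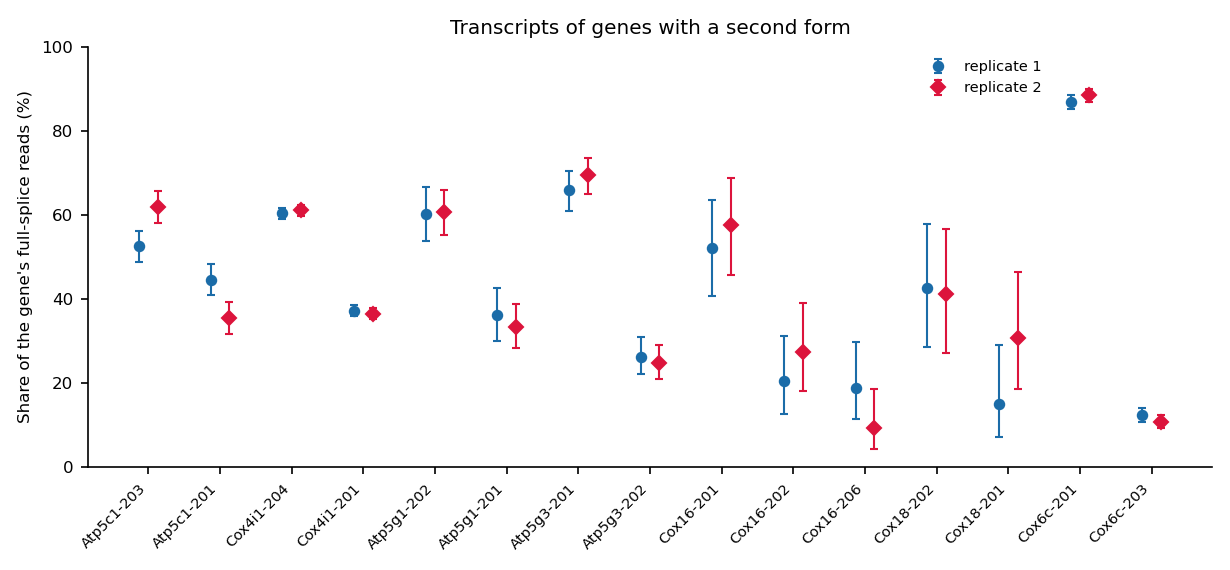
Share of each transcript in its gene's full-splice reads (%), per library, with 95% Wilson intervals as bars. The intervals of the 2 libraries overlap for every transcript shown except those of Atp5c1.

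Unannotated intron chains with at least 10 reads over both libraries numbered 26 and lay in 16 genes. The most frequent used a second acceptor in the second exon of Sdhb, 6 bases after the annotated one, with 74 and 73 reads, or 6.54% and 6.81% of its full-splice reads. Its intron is chr4:140961477-140966500 in place of 140961477-140966494. Atp5j had a second acceptor 5 bases into an untranslated stretch in 2 chains, with 19 and 29 and with 5 and 10 reads, and a first donor moved by 47 bases in the chain with 23 and 24 reads. Shorter acceptor shifts of 3 bases were read in Cox8b (5 and 10 reads, or 0.231% and 0.346%) and Cox7a2 (4 and 7, or 0.404% and 0.626%). The letters were looked up at the acceptors of these 4 genes alone, where the skipped bases end in AG, the letters that end an intron. Whether such small shifts come from splicing or from errors of reading or alignment was not tested. The junctions within coding sequence are printed with the skipped bases in capitals: Sdhb from chr4:140961462-140966515 (plus strand), Cox8b from chr7:140899072-140900246 and Cox7a2 from chr9:79756344-79758504 (both minus strand).
Sdhb junction: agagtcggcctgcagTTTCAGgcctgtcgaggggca
Cox8b junction: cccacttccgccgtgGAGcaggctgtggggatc
Cox7a2 junction: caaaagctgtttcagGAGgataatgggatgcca
The 6 and 3 skipped bases keep the reading frame, being whole codons in number.

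The other chains were rarer, each with at most 31 reads over both libraries. Small shifts were also read at a second acceptor 6 bases into the second exon of Cox8b (2 and 8 reads), at donors 3 bases early in Cox8b (5 and 6 reads), Cox7a2 (5 and 7 reads) and Uqcrc1 (7 and 3 reads), at an acceptor 2 bases late in Sdha (5 and 5 reads), at a donor 4 bases late in Sdhd (7 and 4 reads) and at an acceptor 4 bases early in Cox18 (7 and 3 reads, and 5 and 5 in a second chain). Larger shifts lengthened the first exon of Cox4i1 by 501, 332 or 745 bases (11 and 7, 9 and 6, and 9 and 6 reads) and that of Sdha (8 and 2 reads), and shortened an inner exon of Cox5a by 45 bases (7 and 3 reads). A middle exon of Cox6b1 was skipped in 5 and 7 reads, and an intron was kept in Sdhb (10 and 4 reads) and in Atp5b (2 and 9 reads). An added or unannotated 5′ intron was read in Uqcrh (11 and 20 reads), Cyc1 (10 and 8 reads), Atp5g3 (7 and 6 reads) and Uqcrq (6 and 4 reads). Chains were not tested one by one between the libraries. The Atp5j exon of 55 bases (chr16:84833820-84833874) was included in 35 of 459 reads in replicate 1 and 45 of 590 in replicate 2, or 7.63% in both.

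The members lie on 19 chromosomes. RefSeq promoter windows of 300 bases (GRCm38.p6) were matched by symbol for 48 of the 63 symbols. Searched on both strands, the ETS-family core CCGGAAG stood in 20 of 48 (41.7%), against 17.5% of 12502 genes with reads. The NRF1 core GCGCATGC stood in 8 (16.7%, against 5.32%), among them Cycs, Sdhb, Uqcrc1 and Cox6a1. AAGATGGCG, the YY1 core, stood in 3 (6.25%, against 3.01%), and the ERR core TCAAGGTCA in 2 (4.17%, against 0.392%), Atp5g3 and Sdhd. TATAAA stood in 4 (8.33%, against 9.71%), 1 of them Cox8b. No motif searched contains another, and a match is a description of letters, not of a bound site.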

How the data were processed

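Long-read RNA-seq of adrenal gland was deposited as 1 table per library. Per the file headers each row is a transcript model with its gene, class, exon number, length and the whole number of reads the authors counted in it. These counts are the authors' deposited values, not normalised, and exon number and length were used as deposited. Models come from TALON per the annotation's source column, on mm10 and GENCODE M21 per the submitters' processing notes, and the aligner and the versions were not stated in any source read for this work. ERCC spike-ins were removed from totals. Gene reads were summed over models, and libraries were compared over all genes with at least 10 reads by a two-sided exact binomial test of counts against library totals. The threshold was an adjusted p of 0.05 (Benjamini-Hochberg over all genes). A count model with dispersion (edgeR's quasi-likelihood test) could not be fitted with 1 library a side, so p-values cover counting error between these libraries. The share of known models and of the most-read full-splice transcript was compared by Fisher's exact test, with at least 20 reads in each library. Full-splice reads have all introns of a known model or an unannotated chain from classes NIC and NNC. Scaling by TMM (edgeR 4.0.16) and DESeq2 1.42.0 size factors, other read minimums and known models only were alternatives, run in R 4.3.3 and Python 3.11.15 with scipy 1.17.1. The scripts were tested on simulated data. Multi-exon models only and the addition of reads in unannotated gene records were chosen after seeing the data.

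Named genes were all members of the isoform families, the highest and lowest of each group, all members past a threshold, all with a second transcript of at least 10% where both libraries held 20 or more full-splice reads, and all unannotated chains of at least 10 reads. The members, groups and lists were chosen with earlier results of these data known. Sequences come from GENCODE M21 transcripts (mm10) and promoter windows from RefSeq.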

Additional observations from a re-analysis of the deposited data

How the results depend on the processing

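No paired analysis was possible because the series has 1 group. Each library is a single replicate, so leaving one out gives the other: summed member level 53307 to 55315 CPM. Over single libraries the Cox8b share ran from 55.0% to 60.1%, Cox7a1 from 46.9% to 52.9%, Atp5g1 from 26.9% to 30.6% and Atp5g3 from 48.5% to 52.3%. The direction split of the library ratios depended on scaling. TMM gave 34 calls among members against 21, with 31 against 15 higher in replicate 2 and 3 against 6 higher in replicate 1, and DESeq2 size factors gave 27 and 3. TMM kept the call of 18 of the 21 and added 16, all higher in replicate 2. Atp5b changed sign, from -0.11 to 0.051 (TMM) and 0.0079 (DESeq2) on the log2 scale. Under TMM, complex III subunits had 5 higher in replicate 2 and 1 in replicate 1 against 3 and 3, cytochrome c 1 against 0, complex IV subunits 12 against 5, its assembly factors 3 against 1, the c-ring 3 against 1, and the head 1 and 1 against 0 and 2. With known models only, the complex III assembly factors gained 1 higher in replicate 1 (Uqcc1), the c-ring had 2 higher in replicate 2, members summed to 66151 CPM of known reads against 54311, and Atp5g1 and Atp5g2 held 36.8% and 10.7% of the c-ring reads against 29.0% and 20.9%. At a minimum of 1 read, 17 of the 21 calls remained, without Atp5mpl, Cox17, Cox6a1 and Cox7a2. Dropping mitochondrially encoded genes from the total or adding the reads at the Cox7a1 locus filed elsewhere kept all 21. Known-share calls numbered 5 at 50 reads, 5 with unannotated full-splice chains counted as complete (both adding Atp5a1 and Atp5d) and 1 in multi-exon models, against 3, where the Cox7a1 difference went from -18.8 to 0.42 points. The share of the most-read transcript had 0 calls at 10 full-splice reads against 1. Depth limits the genes near the floor, Cox4i2, Cox6b2, Sdhaf3 and the second Atp5o record, and 1 library a side leaves variation between animals unmeasured.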
